A study of Mus musculus with 9 samples.

Results

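The RNA polymerase subunit genes of growing mouse oocytes were taken as every autosomal gene of the deposited matrices whose symbol starts with Polr1, Polr2 or Polr3 and goes on with letters only, which gave 28 of 28051 genes with a transcript in any sample. By symbol and textbook roles, 3 of them belong to polymerase I only, 8 to polymerase II only, 10 to polymerase III only, 2 to polymerases I and III, and 5 to all 3 enzymes. The 8 include Polr2m, whose product binds polymerase II but is not one of its core subunits. RNA was sequenced from 9 pools of 30 oocytes each, 3 for each of the XX, XO and XY genotypes, here named XX1 to XX3, XO1 to XO3 and XY1 to XY3. Each pool held 10 oocytes between 50 and 55 µm and 20 between 55 and 60 µm across, taken in the growth phase at 18 days after birth. All labels give the strain as C57BL/6. The XY females and the XX females were littermates sired by B6.YTIR males, which carry a Y chromosome of a wild Mus musculus domesticus on the B6 background and give XY females by sex reversal. The XO females came from another cross, sired by Paf (patchy fur) carrier males, which often have XO daughters, of a stock moved from C3H/HeSnJ to B6 by backcross, so the absence of a second sex chromosome, the Paf cross and residual C3H/HeSnJ genome cannot be told apart in any comparison with XO. The number of females behind a pool is not given in the sources used here.

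The 3 nuclear RNA polymerases divide transcription among themselves. Polymerase I makes the large ribosomal RNA precursor, polymerase II makes messenger RNA and many small RNAs, and polymerase III makes transfer RNA, 5S ribosomal RNA and other short RNAs. Each enzyme has a pair of large subunits that form its active centre, an assembly core with a pair of alpha-like subunits, a stalk and a set of small subunits shared between enzymes. Growing oocytes are very active in transcription and store much of the RNA and of the ribosomes that the early embryo will use, and transcription falls silent when growth ends.

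Promoter sequences are given for Polr1d, Polr1e, Polr2c and Polr3k, the subunit genes that passed the test in the comparisons described here. They are RefSeq sequences of the build GRCm38.p6, from 250 bases before to 50 bases after the annotated start, written 5′ to 3′ on the strand of the gene. Capitals mark the letters of 6 motifs, searched on both strands: the TATA box (TATAAA), an E-box (CACGTG), the GC box (GGGCGG), the CCAAT box (CCAAT), an ETS site (CCGGAAG) and the CGCG element (TCGCGAGA). None of these motifs overlapped another in the windows shown. The window of Polr1d lies at chr5:147077096-147077395 on the plus strand, that of Polr1e at chr4:45018359-45018658 on the plus strand, that of Polr2c at chr8:94857200-94857499 on the plus strand, and that of Polr3k at chr2:181864110-181864409 on the plus strand.
Polr1d: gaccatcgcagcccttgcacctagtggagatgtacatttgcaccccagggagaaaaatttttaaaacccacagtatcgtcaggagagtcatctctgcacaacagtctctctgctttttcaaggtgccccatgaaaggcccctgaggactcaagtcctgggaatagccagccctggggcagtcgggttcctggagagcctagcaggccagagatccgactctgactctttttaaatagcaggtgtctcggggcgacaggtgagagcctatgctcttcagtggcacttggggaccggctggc
Polr1e: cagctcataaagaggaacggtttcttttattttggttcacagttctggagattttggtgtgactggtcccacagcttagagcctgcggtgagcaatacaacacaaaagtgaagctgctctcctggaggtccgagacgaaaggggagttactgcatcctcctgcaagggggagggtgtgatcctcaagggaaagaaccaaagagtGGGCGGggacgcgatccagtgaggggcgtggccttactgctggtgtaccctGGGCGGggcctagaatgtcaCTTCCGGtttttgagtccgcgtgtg
Polr2c: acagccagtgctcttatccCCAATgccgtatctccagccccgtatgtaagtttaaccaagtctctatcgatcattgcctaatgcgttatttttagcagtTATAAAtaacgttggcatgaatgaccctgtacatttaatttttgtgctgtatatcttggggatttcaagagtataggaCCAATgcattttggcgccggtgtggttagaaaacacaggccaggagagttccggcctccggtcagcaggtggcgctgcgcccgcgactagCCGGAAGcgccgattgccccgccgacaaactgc
Polr3k: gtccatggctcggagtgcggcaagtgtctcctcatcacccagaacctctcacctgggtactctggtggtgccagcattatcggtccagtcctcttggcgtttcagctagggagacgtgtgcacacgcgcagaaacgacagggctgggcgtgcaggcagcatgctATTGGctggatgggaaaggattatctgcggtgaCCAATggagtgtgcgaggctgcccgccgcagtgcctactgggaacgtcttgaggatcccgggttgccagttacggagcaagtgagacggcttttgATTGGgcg

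No motif was shared by all 4 windows. That of Polr1d held none of the 6 sets of letters, Polr1e held GC boxes and an ETS site, Polr2c held a TATA box, CCAAT boxes and an ETS site, and Polr3k held only CCAAT boxes. The window of Polr1d lies wholly past the deposited start of the gene, chr5:147077050, so the sequence before that start was not searched. Over the 22 subunit genes with a promoter entry, the GC box was found in 63.6%, against 38.2% of all 27025 genes with an entry, and the ETS site in 31.8% against 9.93%. The E-box was present in 18.2% against 8.09% and the CGCG element in 9.09%, which are Polr1c and Polr2e, against 1.13%. The CCAAT box stood in 31.8% against 41.1% and the TATA box in 9.09%, which are Polr2a and Polr2c, against 15.7%. These windows were also richer in G and C, with a median of 60.0% against 52.7%, and the shares of the G and C rich motifs were not adjusted for this.

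The libraries held between 2130145 and 3157338 UMIs on genes, a UMI (unique molecular identifier) being the tag by which the 5′ end of each captured transcript is counted once, and between 0.204 and 0.862% of all UMIs fell on the ERCC spike-in RNAs. Levels are given as normalized CPM, the UMIs of a gene scaled to the gene UMIs of its library and divided by a factor from the spike-ins. As a check of the labels, Y-linked genes had between 2331 and 2437 UMIs in XY pools and between 104 and 187 in XX and XO pools. All 12 oocyte markers had UMIs, and their summed level lay between 18400 and 57900 normalized CPM, with the lowest and the highest both among XO pools. Granulosa cell markers summed to between 34.0 and 81.2 normalized CPM, from 6 of 10 markers that were listed, endothelial markers to between 20.2 and 146 with 3 of 3, and markers of theca and stroma to between 0.305 and 3.92 with 4 of 5. None of 4 blood markers was listed, and the part of other cells in the subunit values was not tested.

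Subunit transcripts covered a wide range of levels. In normalized CPM averaged over the 9 pools, Polr2g, a stalk subunit of polymerase II, stood at 329, Polr2k, a small subunit of all 3 enzymes, at 323, Polr2b, which forms the active centre of polymerase II with Polr2a, at 266, Polr2d, the partner of Polr2g in the stalk, at 177, and Polr2j, an alpha-like subunit of polymerase II, at 134. The remaining 23 lay between 67.8 for Polr1d, an alpha-like subunit of polymerases I and III, and 1.54 for Polr2l, another small subunit of all 3 enzymes. A 5′ UMI counts a captured molecule and not its length, and whether capture differed between genes was not tested. Divided by the length of the longest coding transcript, Polr2k came first with 537 normalized CPM per kb, followed by Polr2g with 369, Polr2d with 174, Polr2j with 149, Polr2b with 64.1 and Polr1d with 56.7, and Polr2l stayed last with 0.934. The order within these 6 genes was not stable between pools, since Polr2j ranged from 3.11 to 527 and Polr2k from 184 to 621 normalized CPM.

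**Figure D1:**
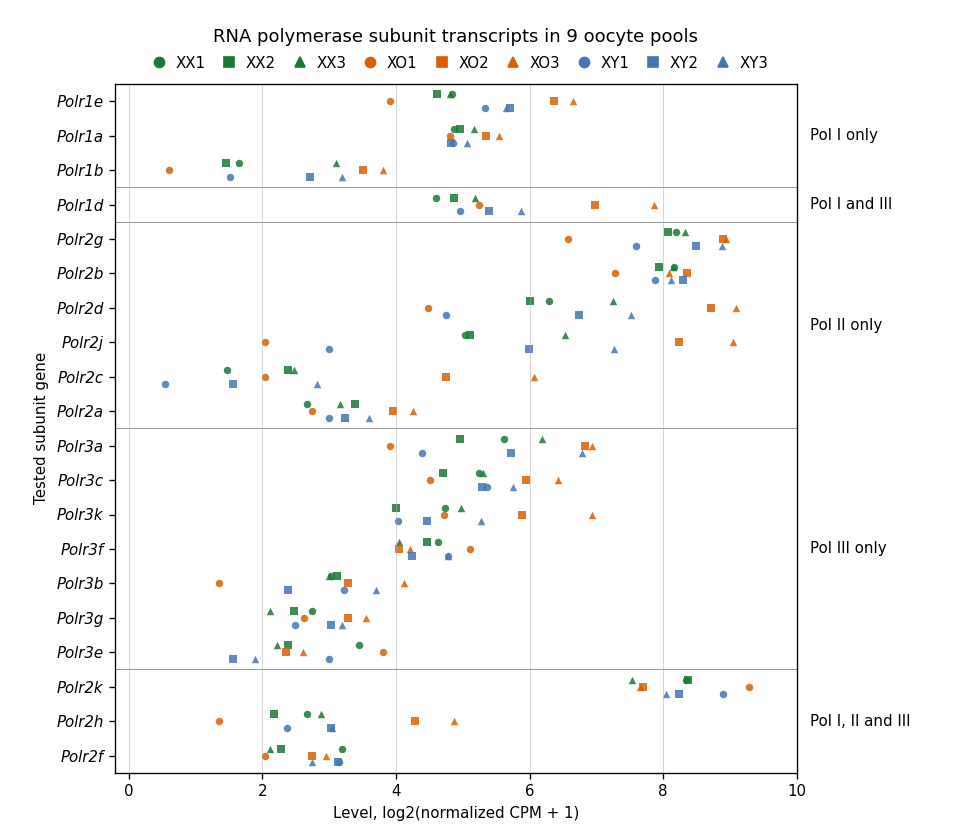
Level of the 20 subunit genes that passed the filter on low counts in each of the 9 pools, as log2 of normalized CPM plus 1, grouped by the enzymes that use the subunit. Colours are genotypes and marker shapes are replicates. XO2 and XO3 stand on the right of most rows, and XO1 on the left of many.

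Captured transcripts of the subunits of one enzyme were not counted in like amounts. The genes of the large subunits of polymerase II differed most, with 266 normalized CPM for Polr2b and 9.73 for Polr2a, or 64.1 and 1.44 per kb. Polr2a had between 5.34 and 18.1 normalized CPM in the 9 pools and Polr2b between 154 and 328, so their ranges did not overlap. For polymerase III the larger value was on the other subunit, with 64.4 for Polr3a and 8.14 for Polr3b, or 13.7 and 1.64 per kb, and for polymerase I Polr1a stood at 32.6 and Polr1b at 5.65, or 3.54 and 1.41 per kb. Of the UMIs on the 8 genes of polymerase II only, Polr2b and Polr2g together took most in XX pools, with Polr2b at 41.1, 39.0 and 32.8% and Polr2g at 41.9, 43.1 and 37.3% in XX1, XX2 and XX3.

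For the tests, 10993 genes passed the filter on low counts, and 20 of the 28 subunit genes were among them. Among the 8 below the filter were Polr1c, Polr2e, Polr2i, Polr2l, Polr2m, Polr3d and Polr3gl. A gene is called here when the edgeR quasi-likelihood test gave an unadjusted p below 0.05, the threshold of the study, and values adjusted by the Benjamini-Hochberg method over all tested genes stand beside it. In the edgeR test with this filter, the spike-in factors and all 9 pools, no subunit gene reached an adjusted p of 0.05 in any comparison. DESeq2 with the same filter and factors gave 2 in XO against XX, Polr1d at an adjusted p of 0.0204 and Polr2c at 0.0418, where 467 of all 10993 tested genes passed. In the same comparison edgeR without the filter gave 9 of 28, where 1607 of all 28051 genes passed, and with 2 surrogate variables it gave Polr1d, at 0.0431, where 296 of 10993 passed. In XY against XO edgeR gave 7 without the filter, where 783 of all genes passed, and 2 with surrogate variables, where 618 passed. In XY against XX it gave 0 and 1, which was Polr3e at 0.0485, where 93 and 725 passed.

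The comparison of XO with XX oocytes asks what the absence of a second sex chromosome does to the oocyte transcriptome. Of the 20 tested subunit genes, 4 were called higher in XO oocytes and 0 lower, where 16.7% of all tested genes were called higher and 1.40% lower. They were Polr1d, Polr2c, Polr3k and Polr1e. Their edgeR log2 fold changes were 2.18 ± 0.58 (SE) for Polr1d, 3.14 ± 1.00 for Polr2c, 1.52 ± 0.57 for Polr3k and 1.31 ± 0.56 for Polr1e, with adjusted p of 0.204, 0.204, 0.231 and 0.266. The median log2 fold change of the tested subunit genes was 0.74, against 0.46 over all tested genes. In pooled oocytes, more RNA per oocyte and a different mixture of oocytes cannot be told apart.

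Polr1d lies at chr5:147077050-147111597 on the plus strand and encodes the smaller alpha-like subunit of polymerases I and III, on which their assembly starts. Its normalized CPM was 23.2, 28.4 and 35.3 in XX1 to XX3, 36.8, 126 and 233 in XO1 to XO3, and 30.2, 41.0 and 57.4 in XY1 to XY3. It was the only tested subunit gene with all 3 XO pools above all 3 XX pools, an order found for 13.6% of all tested genes. XO1 exceeded the highest XX pool by little, while XO2 and XO3 stood far above it. The call of Polr1d held in each of the 21 other fits, with a log2 fold change of 1.63 ± 0.52 with TMM factors computed on genes and 0.61 ± 0.16 in the batch-regressed values of the authors.

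Polr2c lies at chr8:94857450-94873535 on the plus strand and encodes the larger alpha-like subunit of polymerase II, the counterpart of Polr1c. Its normalized CPM was 1.78, 4.20 and 4.57 in XX1 to XX3, 3.11, 25.9 and 66.1 in XO1 to XO3, and 0.465, 1.95 and 6.04 in XY1 to XY3. XO2 and XO3 were far above all other pools and XO1 lay within the range of the XX pools. These are small counts outside XO2 and XO3, from 1 UMI in XY1 to 20 in XY3. The log2 fold change stayed positive but was not called with 2 surrogate variables, at 0.95 ± 0.64, in batch-regressed values, at 0.56 ± 0.35, or without XO3, at 2.02 ± 0.95.

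Polr3k lies at chr2:181864337-181870830 on the plus strand and encodes a small subunit of polymerase III that takes part in RNA cleavage and termination. The pools XX1 to XX3 had 25.6, 15.1 and 30.5 normalized CPM, XO1 to XO3 had 25.4, 57.9 and 121, and XY1 to XY3 had 15.3, 21.2 and 37.7. Again XO2 and XO3 were highest and XO1 was inside the XX range. With TMM factors the log2 fold change was 1.00 ± 0.50 and no longer called.

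Polr1e lies at chr4:45018583-45036565 on the plus strand, overlaps Fbxo10 on the other strand, and encodes a subunit of polymerase I that helps it to start transcription. Its normalized CPM was 27.8, 23.5 and 27.1 in XX1 to XX3, 14.0, 81.2 and 99.4 in XO1 to XO3, and 39.5, 51.4 and 48.9 in XY1 to XY3. XO1 was the lowest of all 9 pools, and XO2 and XO3 the highest. The log2 fold change of XO over XX was 0.80 ± 0.52 with TMM factors and turned to -0.35 ± 0.24 in batch-regressed values. All 3 XY pools lay above all 3 XX pools, which was so for 1 tested subunit gene and for 11.7% of all tested genes, and the edgeR log2 fold change of XY over XX was 0.84 ± 0.56 with an adjusted p of 1.0.

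**Figure D2:**
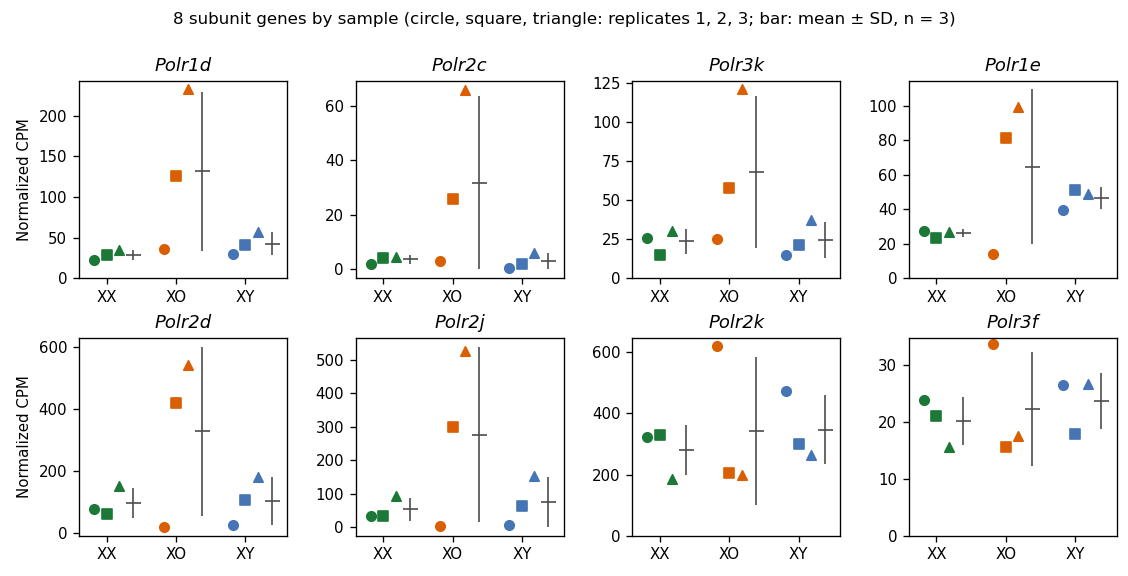
Normalized CPM of 8 subunit genes in each pool, with the mean ± SD of 3 pools per genotype. In the 4 called genes (upper row) and in Polr2d and Polr2j the pools XO2 and XO3 stand above the rest, and in Polr2k and Polr3f the pool XO1 is the highest.

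The other alpha-like genes were also high in XO2 and XO3. This was not particular to them, since XO3 was the highest pool for 15 of the 20 tested subunit genes, against 39.8% of all tested genes. Polr2j, the smaller alpha-like subunit of polymerase II, lies at chr5:136116631-136122947 and overlaps Lrwd1 on the other strand. Its normalized CPM was 31.7, 33.6 and 91.4 in XX1 to XX3, 3.11, 299 and 527 in XO1 to XO3, and 6.97, 62.8 and 153 in XY1 to XY3. XO1 had 6 UMIs and XO3 had 934, so the lowest and the highest pool were both XO, and the edgeR log2 fold change of 2.40 ± 1.36 gave an adjusted p of 0.352. Polr1c, the larger alpha-like subunit of polymerases I and III, was below the filter and not tested, with 2, 1 and 1 UMIs in XX1 to XX3, 6, 17 and 40 in XO1 to XO3, and 1, 2 and 8 in XY1 to XY3. Each XO pool had more normalized CPM of Polr1c than any XX or XY pool, from 3.11 to 22.6, against 0.305 to 0.712 in XX and 0.465 to 2.41 in XY pools. In UMIs XO1, with 6, was below XY3, with 8, so that order rests on the scaling. Among tested genes, which do not include Polr1c, all XO pools lay above all XX pools in 13.6% and above all XY pools in 6.34%.

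The stalk genes of polymerase II had fold changes of different size, and this difference was not tested. Polr2d had 77.3, 63.0 and 151 normalized CPM in XX1 to XX3, 21.2, 420 and 543 in XO1 to XO3, and 26.0, 106 and 182 in XY1 to XY3. Its edgeR log2 fold change of XO over XX was 1.75 ± 0.99 with an adjusted p of 0.350. Polr2g, which forms a dimer with Polr2d, had 290, 268 and 322 in XX1 to XX3, 94.8, 476 and 488 in XO1 to XO3, and 192, 358 and 469 in XY1 to XY3, with a log2 fold change of 0.27 ± 0.57. The XO1 pool was the lowest of the 9 and XO3 the highest for both genes.

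The large subunits of the active centres had smaller fold changes of XO over XX than the called genes. The called genes were picked by this same comparison, and the difference was not tested. Polr1a of polymerase I had 28.1, 30.1 and 35.0 normalized CPM in XX1 to XX3, 26.9, 39.8 and 45.7 in XO1 to XO3, and 27.9, 27.3 and 32.6 in XY1 to XY3. Polr2b of polymerase II, which overlaps the pseudogene Gm42758 on the same strand, had 285, 243 and 283 in XX1 to XX3, 154, 328 and 272 in XO1 to XO3, and 235, 315 and 277 in XY1 to XY3. In both genes the pools of the 3 genotypes overlapped, and the log2 fold changes of XO over XX were 0.27 ± 0.28 for Polr1a and -0.11 ± 0.33 for Polr2b.

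Polr2a, which carries the C-terminal domain of polymerase II, had 5.34, 9.45 and 7.92 in XX1 to XX3, 5.70, 14.5 and 18.1 in XO1 to XO3, and 6.97, 8.46 and 11.2 in XY1 to XY3. Polr3a of polymerase III had 48.1, 30.1 and 71.6 in XX1 to XX3, 14.0, 113 and 122 in XO1 to XO3, and 20.0, 52.1 and 109 in XY1 to XY3. XO3 was the highest pool for both. The second large subunits Polr1b and Polr3b were low, with Polr1b at 2.14, 1.75 and 7.62 in XX, 0.518, 10.3 and 13.0 in XO and 1.86, 5.53 and 8.15 in XY pools. Polr3b had 7.12, 7.70 and 7.01 in XX, 1.55, 8.79 and 16.4 in XO and 8.37, 4.23 and 12.1 in XY pools. XO1 was the lowest pool for both, with 1 UMI of Polr1b and 3 of Polr3b. None of these 6 genes was called in any of the 3 comparisons, with log2 fold changes of XO over XX of 0.74 ± 0.45 for Polr2a, 0.73 ± 0.78 for Polr3a, 1.01 ± 0.91 for Polr1b and 0.28 ± 0.66 for Polr3b.

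Among the subunits of all 3 enzymes, Polr2k had the opposite order of XO pools. It lies at chr15:36174010-36177010 and had 325, 329 and 184 normalized CPM in XX1 to XX3, 621, 206 and 200 in XO1 to XO3, and 475, 301 and 264 in XY1 to XY3. XO1 and XY1 were the highest pools, and XO2 and XO3 were among the lowest. Polr2h, a small subunit of all 3 enzymes, had 5.34, 3.50 and 6.40 in XX, 1.55, 18.6 and 28.2 in XO and 4.18, 7.16 and 7.24 in XY pools, with a log2 fold change of XO over XX of 1.65 ± 0.75 and an edgeR adjusted p of 0.280. Polr2f differed little, from 3.11 to 8.19 over the 9 pools. Polr2e and Polr2l were below the filter with 31 and 33 UMIs in all. Of the 31 UMIs of Polr2e 26 came from XO2 and XO3, and 4 pools had 0, which allows up to 3 UMIs in each.

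The other subunits of polymerase III only also differed in direction. Polr3c, Polr3e and Polr3f belong to parts of polymerase III that act in initiation and termination and were at 21.7 to 84.7, 1.95 to 12.9 and 15.5 to 33.7 normalized CPM. Polr3c was lowest in XO1 and highest in XO3, while Polr3e and Polr3f were highest in XO1. Polr3f had 23.9, 21.0 and 15.5 in XX1 to XX3, 33.7, 15.5 and 17.5 in XO1 to XO3, and 26.5, 17.9 and 26.6 in XY1 to XY3. Polr3d was below the filter, with 59 UMIs in all, and so were Polr2i with 48, of which 27 were in XO3, and Polr2m with 61.

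Polr3g and Polr3gl are paralogs, and each polymerase III holds the product of 1 of them. Polr3g, which is known from stem cells and early embryos, had 5.70, 4.55 and 3.35 normalized CPM in XX1 to XX3, 5.18, 8.79 and 10.7 in XO1 to XO3, and 4.65, 7.16 and 8.15 in XY1 to XY3. Polr3gl, the form of most adult tissues, had 1.07, 2.10 and 3.96, then 3.62, 1.03 and 3.39, then 4.65, 1.30 and 3.32 in the same order and was below the filter. The share of Polr3g in the UMIs of both averaged 66.2 ± 19.3% for XX oocytes, 74.8 ± 15.4% for XO oocytes and 68.6 ± 17.4% for XY oocytes (SD, n = 3 each), and these differed by less than the spread between pools. The pools held 17 to 38 UMIs of both genes together, so that the exact 95% interval of the share reached from 25.6 to 67.2% in XX3, the lowest, and from 66.9 to 98.7% in XO2, the highest. Per length of the longest coding transcript the share was 50.0 ± 21.5, 59.9 ± 19.9 and 52.4 ± 20.1%. Intervals from UMIs cover counting error only.

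The XO1 pool stood apart from XO2 and XO3. It was the lowest of the 9 pools for 12 of the 20 tested subunit genes, against 26.7% of all tested genes, and the highest for 3 of them (Polr2k, Polr3e and Polr3f), against 25.0%. XO3 was the highest pool for 15 of the 20, against 39.8%. Without XO1, 12 of the 20 were called higher in XO than in XX oocytes, 8 of them at an adjusted p below 0.05, where 33.6% of all tested genes were called higher. Of all 10993 tested genes, 2671 had an adjusted p below 0.05 in that edgeR fit, in either direction. The 8 subunit genes called in addition were Polr1b, Polr2a, Polr2d, Polr2h, Polr2j, Polr3a, Polr3c and Polr3g, with edgeR log2 fold changes from 1.09 ± 0.37 for Polr2a to 2.98 ± 0.85 for Polr2j. Which pool is typical of XO oocytes was not tested, and XO1 had the fewest UMIs on genes of polymerase II only, 546, where the other pools had 1014 to 3655.

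**Figure D3:**
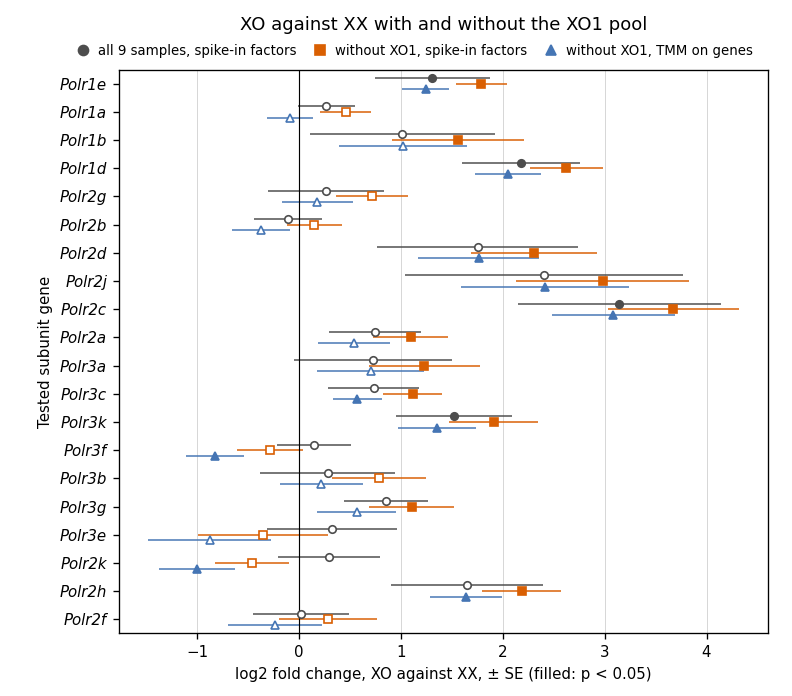
Log2 fold change of XO against XX with its SE for the 20 tested subunit genes, with all 9 pools, without XO1, and without XO1 with TMM factors on genes, filled where p was below 0.05. Most genes move to the right without XO1, Polr2k, Polr3e and Polr3f move to the left, and the TMM factors shift all values to the left.

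The scaling of the libraries changed the direction of part of these values. Of all genes called in XO against XX, 92.2% were higher with the spike-in factors, 50.5% with TMM factors, 29.9% with gene UMI totals and 17.0% in batch-regressed values, and the all-gene median fell from 0.46 with the spike-in factors to 0.03 with TMM factors. The study also scaled to the ERCC RNAs but fitted limma with surrogate variables as covariates. It reported many autosomal genes as lower in XO than in XX or XY oocytes, the reverse of the direction with the spike-in factors here. With TMM factors 2 of the 20 subunit genes, Polr1d and Polr2c, were called higher, where 6.02% of all tested genes were. With TMM factors and without XO1, 8 were called higher, against 19.5%, and 2 were called lower, against 17.4%. The 2 were Polr2k at -1.0 ± 0.38 and Polr3f at -0.82 ± 0.29. In batch-regressed values 10 were lower, against 36.1% of all tested genes, and Polr1d alone was called higher. These values were made by the authors by removing components across samples, which also removes spread that the test would otherwise count.

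The comparison of XY with XX oocytes addresses the effect of the Y chromosome in place of a second X chromosome. No tested subunit gene was called higher and none was called lower by edgeR, where 4.39% of all tested genes were higher and 1.41% lower, so the unadjusted p was under 0.05 for 0 of the 20. DESeq2 called 0 as well, and with 2 surrogate variables edgeR and limma-voom each called Polr1e higher and Polr3e lower, where edgeR then called 10.6% of all tested genes higher and 9.41% lower. Log2 fold changes ranged from -0.65 ± 0.65 for Polr3e to 0.84 ± 0.56 for Polr1e, and their median was 0.26, against 0.19 over all tested genes. The SE lay between 0.28 for Polr1a and 1.30 for Polr2j. Without XO1, which enters this comparison mainly through the shared estimate of the spread, Polr1e was called higher at 0.84 ± 0.23. In that fit 8.6% of all tested genes were called higher.

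The comparison of XY with XO oocytes sets a Y chromosome against no second sex chromosome. Lower levels in XY oocytes were called for 3 of the 20, against 8.24% of all tested genes, and higher levels for 0, against 1.69%. They were Polr2c at -3.39 ± 1.01, Polr1d at -1.61 ± 0.57 and Polr3k at -1.45 ± 0.57 on the log2 scale, each with an edgeR adjusted p of 0.485. All 3 were also called in XO against XX, and both comparisons use the same XO pools. None of the 20 had all XY pools below all XO pools, an order found for 6.34% of all tested genes. Polr2c kept its call in all 21 other fits, with -1.27 ± 0.35 in batch-regressed values. Polr1d lost its call in 5 of the 21, which were gene UMI totals at -1.12 ± 0.54, batch-regressed values at -0.20 ± 0.16, and the fits without XO3 at -0.92 ± 0.51, without XY1 at -1.42 ± 0.66 and without XY2 at -1.58 ± 0.71.

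XO1 with XY1 and XO3 with XY3 deviated from their genotype means together, with correlations of 0.830 and 0.773, but XO2 with XY2 only weakly, at 0.278. The replicate number was also fitted as a block. The block takes in the XX pools as well, whose correlations with XO pools of the same number ranged from -0.447 to 0.679. With the block Polr3e was called lower in XY than in XO oocytes as well, at -0.93 ± 0.35 with an edgeR adjusted p of 0.256, which made 4 of 20 against 14.1% of all tested genes. With TMM factors and the block it was not called, at -0.69 ± 0.36. Polr3e had 9.97, 4.20 and 3.66 normalized CPM in XX1 to XX3, 12.9, 4.14 and 5.08 in XO1 to XO3, and 6.97, 1.95 and 2.72 in XY1 to XY3. In UMIs these were 25, 8 and 9 in XO1 to XO3 and 15, 6 and 9 in XY1 to XY3. XO3 and XY3 thus held equal UMIs of Polr3e and differed only through the scaling. Without XO1, 9 of the 20 were called lower in XY oocytes, against 27.0% of all tested genes. Of the 9, 6 had an edgeR adjusted p below 0.05, where 1407 of all 10993 tested genes did, in either direction. In batch-regressed values 11 were higher in XY oocytes, against 37.5%, and of all called genes 87.1% were higher there, where the share was 17.0% with the spike-in factors, 59.5% with TMM factors and 82.4% with gene UMI totals.

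**Figure D4:**
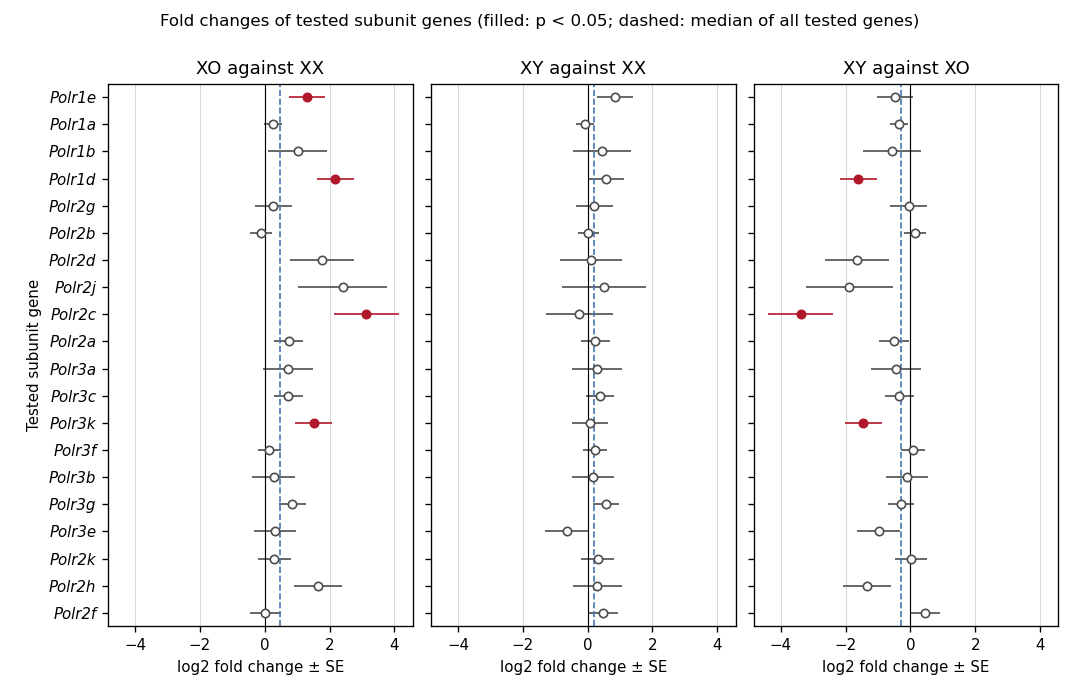
Log2 fold changes with their SE of the 20 tested subunit genes in the 3 comparisons, filled red where the edgeR p was below 0.05, with the median of all tested genes as a dashed line. The 4 called genes of XO against XX and the 3 of XY against XO share Polr1d, Polr2c and Polr3k, and XY against XX has none.

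Ratios between subunits within a pool do not depend on the scaling of libraries. The UMIs of genes of polymerase III only amounted to 23.6, 18.0 and 20.6% of those of polymerase II only in XX1 to XX3, 45.2, 17.6 and 20.2% in XO1 to XO3, and 28.0, 17.4 and 23.5% in XY1 to XY3. XO1 stood apart with the highest ratio, and the other pools of the 3 genotypes overlapped. XO1 had the fewest UMIs of both, 247 of polymerase III only and 546 of polymerase II only. Both were also lowest relative to the gene UMIs of the library. The log2 ratio of XO over XX was 0.292 from summed UMIs and -0.128 without XO1. Averaged over subunits, it was -0.371 with log2 of CPM plus 1 and 0.346 with batch-regressed values. Among the genes of polymerase II only, the share of Polr2j was 4.57, 5.40 and 10.6% in XX1 to XX3, 1.10, 19.0 and 27.3% in XO1 to XO3, and 1.48, 7.35 and 13.9% in XY1 to XY3. The share of Polr2b ran the other way, with 54.4, 20.8 and 14.0% in XO1 to XO3 and 49.8, 36.8 and 25.1% in XY1 to XY3. By exact 95% intervals for counting error, the Polr2j share was 0.404 to 2.38% in XO1 and 25.8 to 28.8% in XO3. Both the lowest and the highest share were thus found in XO pools, and the ranges of the 3 genotypes overlapped.

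**Figure D5:**
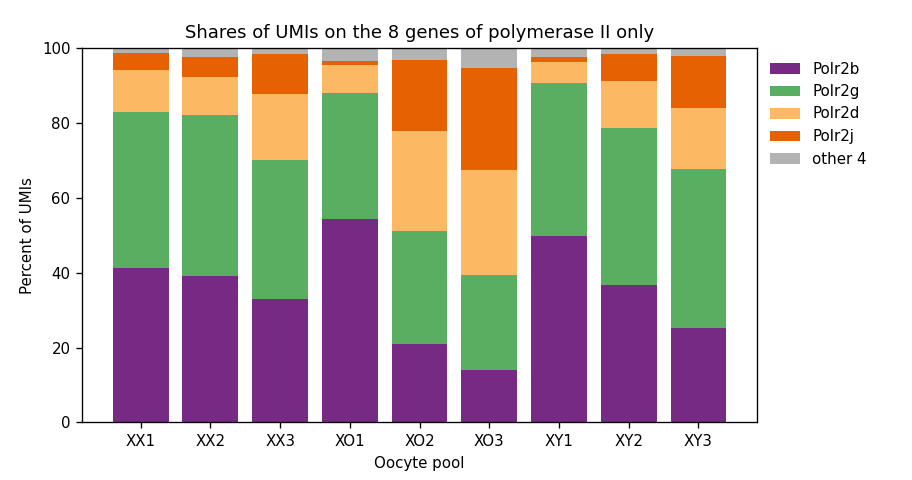
Shares of Polr2b, Polr2g, Polr2d, Polr2j and the 4 other genes in the UMIs on the 8 genes of polymerase II only, 1 bar per pool. Polr2d and Polr2j take the most in XO3 and XO2 and the least in XO1 and XY1, where Polr2b takes the most.

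Partners of the polymerases were described by lists of genes. Of 8 genes listed as polymerase assembly factors, all tested, 4 were called higher in XO than in XX oocytes, against 16.7% of all tested genes, and 0 lower. The list includes Iws1, which is an elongation factor and was not called. The same 4 were called lower in XY than in XO oocytes, against 8.24%, with 0 called in XY against XX. Both comparisons use the same XO pools. The 4 are Rpap2 and Rpap3, and the small GTPases Gpn2 and Gpn3, which act on polymerase II before it enters the nucleus. Rpap2, a phosphatase of the C-terminal domain that also brings polymerase II into the nucleus, had 203, 232 and 207 normalized CPM in XX1 to XX3, 548, 413 and 468 in XO1 to XO3, and 289, 240 and 220 in XY1 to XY3. All 3 XO pools, XO1 included, lay above all XX and XY pools. Of all tested genes, 13.6% had all XO pools above all XX pools and 6.34% had them above all XY pools. The edgeR log2 fold change of Rpap2 was 1.15 ± 0.28 for XO over XX (adjusted p = 0.204) and -0.93 ± 0.28 for XY over XO (adjusted p = 0.485). For XO over XX, it was 0.72 ± 0.30 with TMM factors and 0.71 ± 0.14 in batch-regressed values. For XY over XO the call was lost with TMM factors, at -0.66 ± 0.30.

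Gpn2 had 4.99, 1.05 and 3.35 in XX, 7.25, 8.79 and 22.6 in XO and 4.18, 3.58 and 4.83 in XY pools. Gpn3 had 2.49, 2.10 and 3.35 in XX, 3.62, 11.4 and 22.0 in XO and 2.32, 1.30 and 3.62 in XY pools. In XO over XX their log2 fold changes were 2.02 ± 0.60 and 2.19 ± 0.64, and that of Rpap3 was 1.06 ± 0.41. With 2 surrogate variables, Gpn2 at 0.36 ± 0.63, Gpn3 at 0.55 ± 0.63 and Rpap3 at 0.57 ± 0.67 were not called. The median log2 fold change of XO over XX was 1.11 over these 8 factors and 0.46 over all tested genes.

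The other lists had few calls with all 9 pools and more without XO1. Of 16 tested factors of polymerase II elongation and its C-terminal domain, Nelfa, a subunit of the pausing factor NELF, was called higher in XO than in XX oocytes, at 0.90 ± 0.40 on the log2 scale with an edgeR adjusted p of 0.275, and it was not called with TMM factors, at 0.41 ± 0.37, and turned to -0.07 ± 0.22 in batch-regressed values. Of 6 tested factors of polymerase I, 0 were called in XO against XX, and Taf1a, a subunit of the selectivity factor of polymerase I, was called lower in XY than in XO oocytes at -0.93 ± 0.36 (edgeR adjusted p = 0.485). Taf1a was not called with TMM factors, at -0.59 ± 0.31, with gene UMI totals, at -0.47 ± 0.32, or in batch-regressed values, at -0.16 ± 0.15. None of 10 tested factors of polymerase III and none of 3 of the mitochondrial polymerase were called in any of the 3 comparisons with all 9 pools. Without XO1, 6 of the 16 elongation factors, 1 of the 6 polymerase I factors, 2 of the 10 polymerase III factors and 1 of the 3 mitochondrial ones were called higher in XO than in XX oocytes, against 33.6% of all tested genes, as were 5 of the 8 assembly factors. In XY against XO without XO1, 3, 1, 2, 1 and 4 of these lists in the same order were called lower, against 27.0%. Subunits with other gene names were not called with all 9 pools, which are Twistnb and Znrd1 of polymerase I and Crcp of polymerase III. Crcp, in the stalk of polymerase III, had a log2 fold change of XO over XX of 2.14 with an unadjusted edgeR p of 0.0544. Without XO1, Crcp was called in both comparisons with XO, as higher in XO pools. Each of the 3 comparisons then also called 1 of the 2 polymerase I genes higher, but not always the same gene. Znrd1 had 106.5 and 133.2 normalized CPM in XO2 and XO3, above its 24.17, 62.83 and 100.2 in XY1 to XY3. It was thus not the gene called higher in XY against XO. Twistnb was lower in XO2 and XO3 than in XX1 and XX2, and higher than in XX3.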

How the data were processed

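RNA of 9 oocyte pools was sequenced by Smart-seq3. Reads were stranded and paired. Hisat2 was the aligner and GRCm38 with Gencode the reference, and the authors deposited UMI counts of 5′ exons per gene. They also deposited a signal, which they call normalized CPM, and log2 values with batch effects regressed out. The deposited signal equals the counts scaled by the gene total and by TMM factors computed on the ERCC RNAs, with a largest relative difference of 5.01e-15. The count table holds 28052 genes, 79 spike-ins and 1 other entry with 0 UMIs, which was left out. The XO column without a number was taken as XO1, since the others carry 2 and 3.

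Counts were tested with edgeR 4.0.16 in R 4.3.3 (quasi-likelihood F test, two-sided), with all 9 samples in 1 fit, 1 mean per genotype, the gene UMI total as library size and the spike-in factors. The filter (filterByExpr, minimum count 10) kept genes above 4.01 CPM in at least 3 samples with a total of at least 15 UMIs. The SE is the log2 fold change divided by the square root of F. The script was tested on simulated data. Log2 fold changes are for the genotype named first over the one named second. Alternatives were TMM factors on genes, gene UMI totals, no filter, DESeq2 1.42.0, 2 surrogate variables (sva 3.50.0) with edgeR or limma-voom 3.58.1, limma on the batch-regressed values, a replicate block, and each sample left out in turn. Leaving out XO1 with TMM factors, and XO1 with XY1, was added after the data were seen.

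The subunit genes, the lists of partners and the markers were chosen with earlier results of these data known. All subunit genes kept by the filter were to be named, with values per sample for the large subunits, the paralogs and the called genes. Values per sample of Polr1c, Polr2d, Polr2g, Polr2h, Polr2j, Polr2k, Polr3e and Polr3f were added after they were seen. P-values measure the spread between pools, whose separate animals are not given.

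The replicate numbers were checked by the correlation, across tested genes, of deviations from genotype means. It was 0.830, 0.278 and 0.773 for XO and XY samples of the same number, which were taken as paired, although XO2 correlated more with XY3, at 0.721. For XX with XO it ranged from -0.447 to 0.679, and for XX with XY from -0.0595 to 0.726. The labels do not say what a number marks. Gene coordinates are those deposited, and overlaps and transcript lengths come from Gencode vM21. Promoters of 22 of the 28 genes were matched by symbol in RefSeq. Polr2d, Polr2g, Polr2k, Polr3a and Polr3d were among those with no entry. The values of 1 subunit gene are not reported here.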

Additional observations from a re-analysis of the deposited data

How the results depend on the processing

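With 4 subunit genes called in XO against XX oocytes, the count was 2 with TMM factors, with gene UMI totals and with 2 surrogate variables (edgeR or limma-voom, 1 higher and 1 lower), 11 in batch-regressed values, 12 without the filter on low counts, and 0 at an adjusted p below 0.05. It was 10 with TMM factors without XO1 and 13 without XO1 and XY1. Of all tested genes, 3.83% were higher there with gene UMI totals, 8.53% higher and 7.33% lower with surrogate variables in edgeR, 13.5% higher without the filter and 36.5% higher without XO1 and XY1. With 0 called in XY against XX, it was 2 with 2 surrogate variables in either tool. In batch-regressed values it was 3 (2 higher and 1 lower, against 12% and 10% of all tested genes). With TMM factors without XO1 it was 1 (higher, against 5.36%). It was 3 without XO1 and XY1 (2 higher and 1 lower, against 12.1% and 3.88%). With 3 called in XY against XO, it was 1 with gene UMI totals (lower, against 1.95%) and 0 at an adjusted p below 0.05. With 2 surrogate variables it was 6 in either tool (2 higher and 4 lower, against 10.1% and 11.5% of all tested genes in edgeR). In batch-regressed values it was 13 (11 higher and 2 lower, against 37.5% and 5.53%). It was 9 without the filter (all lower, against 8.70%) and 8 without XO1 and XY1 (all lower, against 24.6%). With TMM factors without XO1 it was 9 (2 higher and 7 lower, against 16.6% and 17.1%). Leaving out 1 sample at a time gave 1 to 12 calls in XO against XX, 0 to 1 in XY against XX and 1 to 9 in XY against XO, in each case with the most without XO1. The fewest came without XO3, and in XY against XO without XO3 or XY2. The cause was not tested, except that fits without XO1 have fewer samples and the fit without the filter tests more genes.

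The median log2 fold change of the tested subunit genes was -0.50 in XO against XX and 0.74 in XY against XO in batch-regressed values, where it was 0.74 and -0.46 with the spike-in factors. Leaving out 1 sample gave 0.50 to 1.11 and -0.79 to -0.12. Polr1e reversed in XO against XX, at -0.35 in batch-regressed values, and was called in 5 of 21 other fits, with its call lost without any single pool other than XO1. The replicate block made 4 subunit genes called in XY against XO, by adding Polr3e, and 3 in XO against XX, where Polr1e was lost, and changed no other call. The call of Polr2c was lost in 4 of 21 other fits in XO against XX, and that of Polr1d in 5 of 21 in XY against XO. The call of Polr3k was lost in 8 of 21 other fits in XO against XX and in 6 of 21 in XY against XO, among them those without XO3 (0.81 and -0.74), without XX1 (1.58) or XX2 (1.28) in the first, and without XY1 (-1.21) or XY2 (-1.35) in the second. The 8 subunit genes below the filter were tested only in the fit without it, which called Polr1c, Polr2e, Polr2i, Polr2m and Polr3d higher in XO than in XX oocytes.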
